A study of Mus musculus with 4 samples.

Results

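The genes described here are the transcription factor NRF2, its inhibitor KEAP1, and the glutathione, thioredoxin, peroxiredoxin, superoxide dismutase and catalase genes that form the main antioxidant enzymes of a mammalian cell. They were taken from a list of 43 gene symbols, and a probe set counted for a gene when the platform annotation gave it that symbol and no other. Of the 43, 39 had such a probe set among 22180 genes in all. The remaining 4, Prdx1, Prdx5, Prdx6 and Gstm5, had none, so their expression was not analysed, though they stayed in the promoter search below.

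Expression was measured on whole-transcript arrays in 4T1, a mouse mammary carcinoma line kept in culture. One group expressed a scrambled short hairpin RNA (scramble, 2 arrays) and the other a hairpin against Ldha (shLDHA, 2 arrays), the gene of the lactate dehydrogenase subunit that turns pyruvate into lactate and NADH back into NAD+. The shLDHA cells were a pool that had survived puromycin at 10 µg/ml rather than a single clone, and whether the scramble cells went through the same selection is not stated, so selection and knockdown cannot be told apart. All cells had spent 24 hours in complete RPMI medium, and no oxidant or other agent is named for either group. The labels do not give the replicates separate cultures, so p-values here reflect array-to-array spread, which may be technical.

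NRF2, the product of Nfe2l2, is held in the cytoplasm by KEAP1, which delivers it to a CUL3 ubiquitin ligase for destruction. Oxidants and electrophiles modify cysteines of KEAP1, and NRF2 then enters the nucleus, pairs with a small MAF protein and binds the antioxidant response element in front of its target genes. Its targets make and reduce glutathione, reduce thioredoxin and conjugate electrophiles. Glutathione and thioredoxin both draw their electrons from NADPH.

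The targeted gene was lower in the knockdown arrays. Ldha signals were 6.69 and 6.96 in scramble and 6.31 and 6.15 in shLDHA (log2 scale, as all signals here), a log2 change of -0.59 (SE 0.12, adjusted p = 0.0390). That call was lost with the replicate number as a block (adjusted p = 0.0734) and without scramble replicate 2 (0.128), shLDHA replicate 1 (0.0965) or shLDHA replicate 2 (0.163). Arrays of a group correlated at r = 0.997 across genes, which are not independent replicates, and arrays of different groups at r = 0.993. All 8 epithelial markers lay above 4.19, the log2 signal below which 95% of 1105 olfactory receptor genes fell. Of the 8, Epcam (log2 change 0.53, adjusted p = 0.0178) and Krt8 (0.47, adjusted p = 0.0255) rose and Cldn7 (-1.06, adjusted p = 0.00242) fell. These calls are 37.5% of the list, beside 6.36% of all genes and 11.7% of those at or above the median signal. At an unadjusted limma p under 0.05, 7 of the 8 and 4778 of all 22180 genes passed. The summed linear signal of the epithelial list was 4687 and 4707 in scramble and 5302 and 5317 in shLDHA. Above the same mark lay 1 of 7 leukocyte markers (Cd14), 1 of 8 fibroblast markers (Pdgfra) and 0 of 6 endothelial markers. Summed linear signals of the leukocyte list ran from 97.3 to 107 in scramble and from 99.0 to 99.6 in shLDHA, those of the fibroblast list from 160 to 163 and from 149 to 165, and those of the endothelial list from 51.0 to 52.9 and from 53.7 to 54.4. Of these 3 lists, 0 markers passed (1 leukocyte, 1 fibroblast and 0 endothelial markers at an unadjusted p under 0.05). Their part in the results was not tested.

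The core of the antioxidant response element, TGACNNNGC, was searched for on both strands of the promoter windows of these genes. The windows are those that RefSeq gives (build GRCm38.p6, 250 bases before to 50 after each start). Of the 43 listed genes, 37 had a window and 9 had a match. As a share, 24.3% of these 37 genes had a match, against 14% of all 27025 genes with a window. Of the 34 that were also measured on the arrays, 7 had a match, beside 14.9% of the 16990 measured genes with a window. As a share of windows, 20.5% of the 44 windows of these genes had a match, against 12.4% of all 32851. The matches follow with 10 bases to each side, read on the strand on which the core runs 5′ to 3′, with the core in capitals.
Nfe2l2, chr2:75704885-75704913, minus strand: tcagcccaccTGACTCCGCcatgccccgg
Gclm, chr3:122245413-122245441, minus strand: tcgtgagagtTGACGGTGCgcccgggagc
Txnrd1, chr10:82859104-82859132, minus strand: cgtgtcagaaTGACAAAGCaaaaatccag
Prdx1, chr4:116685456-116685484, minus strand: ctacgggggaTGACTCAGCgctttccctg
Srxn1, chr2:152105542-152105570, minus strand: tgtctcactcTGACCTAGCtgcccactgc
Gsta3, chr1:21240454-21240482, plus strand: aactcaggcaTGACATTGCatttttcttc
Gstm5, chr3:107895802-107895830, plus strand: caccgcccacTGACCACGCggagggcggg
Mgst1, chr6:138140461-138140489, minus strand: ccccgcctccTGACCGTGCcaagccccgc
Sod1, chr16:90220696-90220724, minus strand: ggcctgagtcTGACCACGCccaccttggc
Those of Nfe2l2, Gclm, Prdx1 and Mgst1 began 240, 134, 133 and 56 bases before the start of their gene, and that of Srxn1 lay 29 bases after it. A match is a stretch of letters, and binding of NRF2 was not measured.

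Most antioxidant genes did not differ between the knockdown and the control cells beyond the test's threshold. Of the 39 measured, 1 was higher and 3 were lower in shLDHA at a limma adjusted p under 0.05, and 35 did not pass. In simulated data, 8.36% of changes of 0.5 log2 units passed in the right direction, and 90.7% of changes of 1 unit. The simulation had fewer changed genes than were called here, so these shares may differ for the real data. A gene that did not pass may still have changed. Gsta4 rose, and Osgin1, Abcc1 and Txnrd2 fell. The 4 calls are 10.3% of the genes, where 6.36% of all genes were called, 3.37% higher and 2.99% lower. Among genes at or above the median signal, 4 of 32 antioxidant genes were called (12.5%), next to 11.7% of all such genes. The median log2 change of the 39 genes was 0.04, and that of all genes 0.01. The arrays of the groups did not overlap for 24 of the 39, 16 of them higher and 8 lower in shLDHA, and for 50.3% of all genes. At an unadjusted limma p under 0.05, 16 of the 39 and 4778 of all 22180 genes passed. The antioxidant genes were brighter (median signal 6.35, against 4.02 over all genes), and these counts are not matched for signal.

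**Figure D1:**
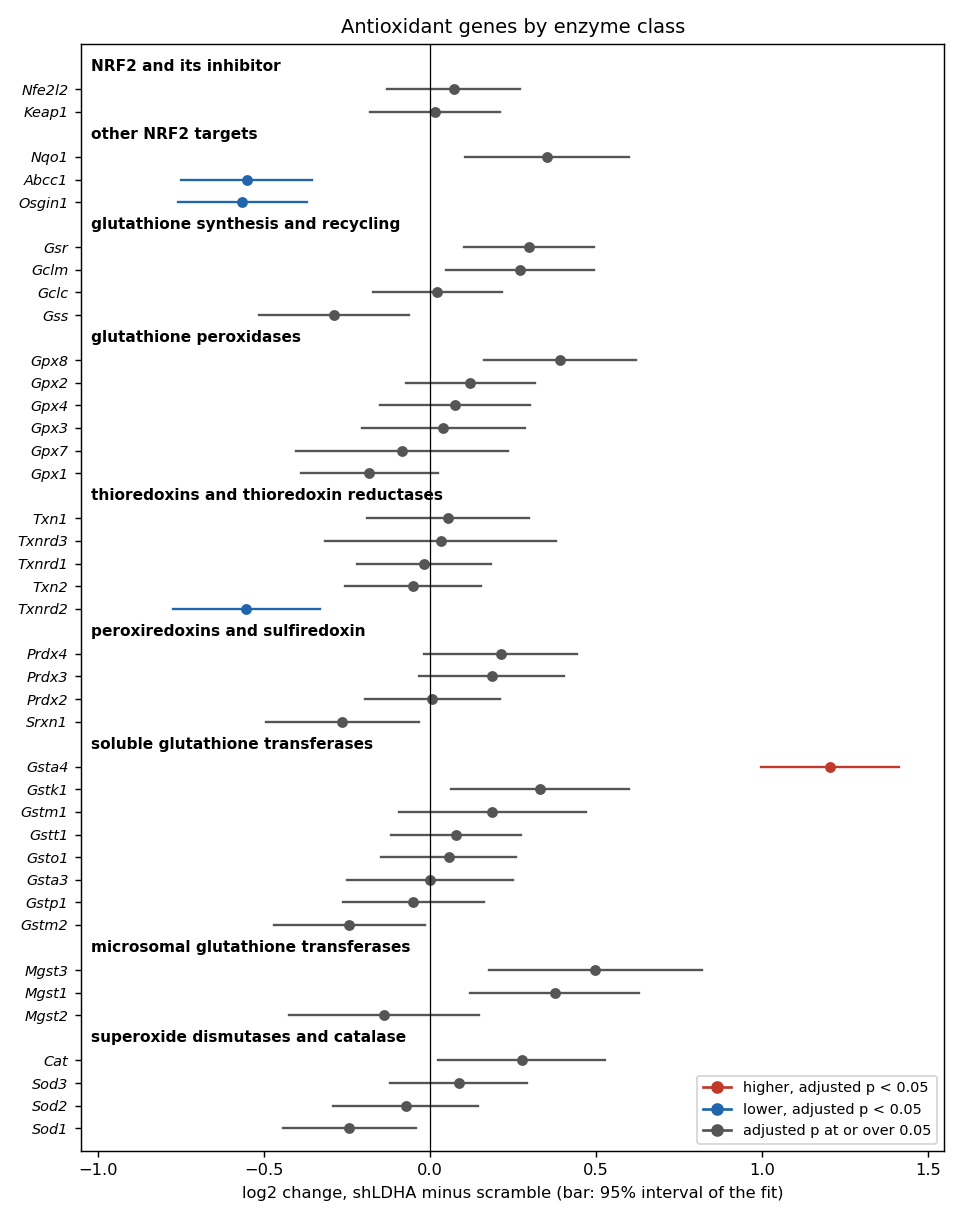
Log2 change of each antioxidant gene, shLDHA minus scramble (x axis), by enzyme class, with 2 arrays per group. Points are the estimates and bars the 95% intervals of the limma fit, not adjusted for the number of genes; Gsta4 stands at 1.21, the 3 genes that fell lie between -0.56 and -0.55, and the other 35 lie between -0.29 and 0.50.

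The regulators themselves read nearly alike in both groups. Nfe2l2 read 9.59 and 9.52 in scramble and 9.62 and 9.63 in shLDHA, a log2 change of 0.07 with a 95% interval from -0.13 to 0.27. Keap1 read 6.76 and 6.74 in scramble and 6.78 and 6.75 in shLDHA, and its interval ran from -0.18 to 0.21. A second, dimmer Keap1 probe set changed by 0.18 (adjusted p = 0.464 with every probe set tested). The arrays of the groups did not overlap for Nfe2l2 but did for Keap1. NRF2 is controlled mainly at the level of protein stability and location, which these RNA measurements do not read.

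Among 3 further targets of NRF2, 2 fell. Of all genes at or above the median signal, 11.7% were called in either direction, and 3 genes are too few for a share. Osgin1, which encodes an oxidative stress-induced growth inhibitor, read 7.385 and 7.41 in scramble and 6.84 and 6.83 in shLDHA. Both shLDHA arrays lay below both scramble arrays. The fall was 1.48-fold (log2 change -0.56, SE 0.08, limma adjusted p = 0.0147), with SDs of 0.02 in scramble and 0.01 in shLDHA (n = 2 each). Abcc1 encodes MRP1, a membrane pump that exports glutathione conjugates and oxidised glutathione. It read 8.26 and 8.31 in scramble against 7.73 and 7.74 in shLDHA, with no overlap, a 1.46-fold fall (log2 change -0.55, SE 0.08, adjusted p = 0.0159).

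Nqo1, the quinone reductase gene that is the most widely used readout of NRF2, went the other way without passing. It read 3.91 and 3.81 in scramble and 4.32 and 4.11 in shLDHA. The groups did not overlap, and the log2 change was 0.35 (SE 0.10, adjusted p = 0.107). Its mean over the 4 arrays was below the olfactory receptor mark of 4.19.

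The promoter of Osgin1 held no match to the core searched for. Its 250 bases before the start (chr8:119436897-119437146, plus strand, 58.4% G and C) are printed because Osgin1 is one of the genes that fell.
Osgin1: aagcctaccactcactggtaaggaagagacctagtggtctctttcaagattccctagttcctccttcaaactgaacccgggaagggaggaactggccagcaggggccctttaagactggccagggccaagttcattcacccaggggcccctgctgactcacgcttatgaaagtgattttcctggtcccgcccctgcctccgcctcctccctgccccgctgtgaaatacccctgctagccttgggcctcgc
No match says only that these letters are not in this window. The other called gene with a window, Txnrd2, held none either. The 7 measured genes with a match had log2 changes from -0.26 to 0.38, 4 above 0 and 3 below, and 0 of them passed. At an unadjusted limma p under 0.05, Gclm, Mgst1, Sod1 and Srxn1 did, as did 4778 of all 22180 genes.

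Genes of glutathione synthesis and recycling gave 0 calls of 4, with 3 of 4 at an unadjusted limma p under 0.05. Of all 22180 genes, 4778 had such a p, and for 50.3% the arrays of the groups did not overlap. These shares are not matched for signal. Glutathione is made in 2 steps, by glutamate-cysteine ligase, whose catalytic and modifier subunits Gclc and Gclm encode, and then by glutathione synthetase (Gss), and glutathione reductase (Gsr) returns its oxidised form to the reduced one. Gsr read 9.54 and 9.53 in scramble and 9.85 and 9.81 in shLDHA, a log2 change of 0.30 (SE 0.08, adjusted p = 0.0914). Gclm read 8.79 and 8.68 against 8.95 and 9.07, a log2 change of 0.27 (adjusted p = 0.154). Both had higher values on both shLDHA arrays, while Gss was lower on both.

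Gss read 6.17 and 6.34 in scramble and 5.95 and 5.98 in shLDHA (log2 change -0.29, adjusted p = 0.139). Gclc, the catalytic subunit gene, read 8.38 and 8.37 against 8.41 and 8.38. Its 95% interval, from -0.17 to 0.22, was one of the narrowest here. The subunits of 1 enzyme therefore had point estimates of 0.02 (Gclc) and 0.27 (Gclm), and the difference between them was not tested.

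**Figure D2:**
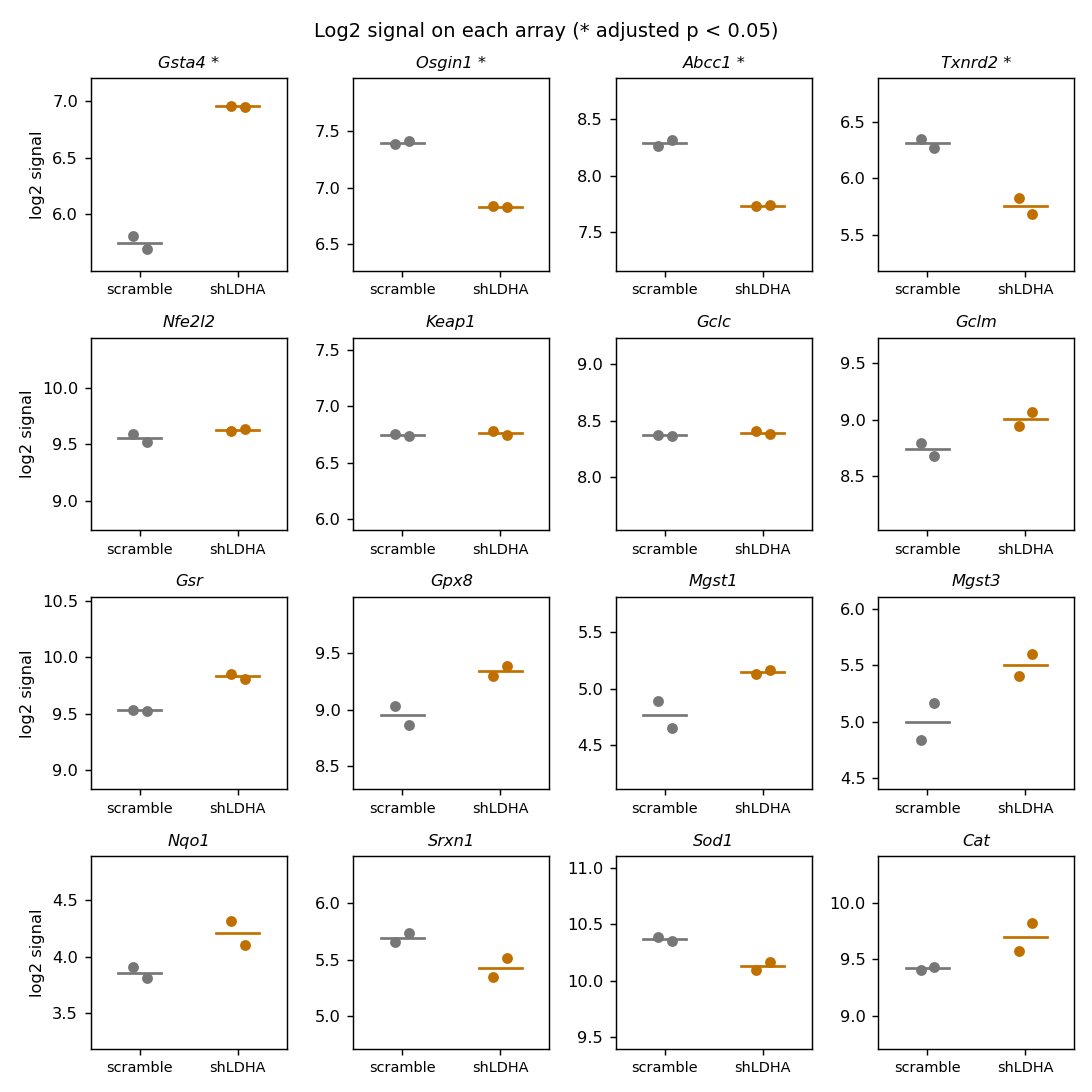
Log2 signal of 16 antioxidant genes on each array (y axis, 1.7 log2 units in every panel), scramble in grey and shLDHA in orange, with a line at the mean of the 2 arrays. An asterisk marks an adjusted p under 0.05: Gsta4 rose from about 5.75 to 6.95, and Osgin1, Abcc1 and Txnrd2 fell, while the other 12 panels did not pass.

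Of 6 glutathione peroxidase genes, 0 passed and 1 had an unadjusted p under 0.05. These enzymes reduce peroxides at the expense of glutathione or, for Gpx7 and Gpx8, act in the endoplasmic reticulum. Gpx8 read 9.03 and 8.87 in scramble and 9.30 and 9.39 in shLDHA. Both shLDHA arrays were higher, with a log2 change of 0.39 (SE 0.10, adjusted p = 0.0677), and the gene passed in 3 of 13 alternative settings. Its neighbour Cdc20b, whose gene overlaps it, read between 2.88 and 3.08 on all arrays, below the olfactory receptor mark.

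Gpx1, the widely expressed cytosolic form, read 9.30 and 9.20 in scramble and 9.07 and 9.06 in shLDHA (log2 change -0.18, adjusted p = 0.290). Gpx4 reduces lipid hydroperoxides in membranes and guards cells against ferroptosis. It read 6.12 and 6.19 against 6.15 and 6.31, with overlapping groups and a 95% interval from -0.15 to 0.30. Gpx2, Gpx3 and Gpx7 all had means under the olfactory receptor mark and log2 changes of 0.12, 0.04 and -0.08.

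In the thioredoxin system 1 of 5 genes passed, where 11.7% of all genes at or above the median signal did. Thioredoxin reduces protein disulfides and peroxiredoxins, and thioredoxin reductases, which are selenoproteins, recharge it with NADPH. Txnrd2, the gene of the mitochondrial reductase, read 6.35 and 6.27 in scramble and 5.82 and 5.68 in shLDHA. The groups did not overlap, and the signal fell 1.47-fold (log2 change -0.55, SE 0.09, adjusted p = 0.0220).

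The other thioredoxin genes lay near 0, with overlapping groups for each. Txnrd1, the cytosolic reductase gene and an NRF2 target, read 9.62 and 9.59 in scramble and 9.55 and 9.63 in shLDHA, a log2 change of -0.02 with an interval from -0.22 to 0.18. The gene Eid3, which overlaps Txnrd1 in RefSeq and lay above the olfactory receptor mark, read 6.47 and 6.22 against 6.20 and 5.83 without passing (-0.33, adjusted p = 0.271), and its part in the Txnrd1 signal was not tested. Txn1, the cytosolic thioredoxin gene, read 9.52 and 9.36 against 9.41 and 9.57 (interval -0.19 to 0.30). Txn2, the mitochondrial thioredoxin that Txnrd2 reduces, changed by -0.05 and Txnrd3 by 0.03. The 95% interval of Txnrd2 ran from -0.77 to -0.33, and whether Txnrd2 changed more than Txnrd1 was not tested.

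The 250 bases before the start of Txnrd2 (chr16:18426167-18426416, plus strand, 65.6% G and C) are given as the window of the only other called gene that had one.
Txnrd2: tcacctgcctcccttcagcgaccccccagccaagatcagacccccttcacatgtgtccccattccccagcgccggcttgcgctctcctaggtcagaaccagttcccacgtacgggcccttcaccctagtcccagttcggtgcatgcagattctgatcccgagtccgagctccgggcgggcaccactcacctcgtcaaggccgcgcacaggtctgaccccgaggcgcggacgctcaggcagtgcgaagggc

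Peroxiredoxins, which destroy hydrogen peroxide with a reactive cysteine, and sulfiredoxin, which repairs that cysteine after overoxidation, gave 0 calls among the 4 genes measured. Srxn1, the sulfiredoxin gene and an NRF2 target, read 5.65 and 5.73 in scramble and 5.34 and 5.52 in shLDHA, lower on both arrays (log2 change -0.26, SE 0.10, adjusted p = 0.180, unadjusted p = 0.0314). The mitochondrial Prdx3 read 9.10 and 9.10 against 9.21 and 9.36 (0.19), and Prdx4, which works in the endoplasmic reticulum, read 6.28 and 6.13 against 6.36 and 6.48 (0.21). Prdx2 changed by 0.01, with an interval from -0.19 to 0.21. Srxn1 was thus lower and Prdx3 and Prdx4 higher on both shLDHA arrays, none past the threshold.

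Among the soluble glutathione transferases, which attach glutathione to electrophiles, 1 of 8 rose and 0 fell (12.5%, beside 6.36% of all genes). Gsta4, the alpha-class enzyme known for its activity toward 4-hydroxynonenal, an end product of lipid peroxidation, read 5.81 and 5.69 in scramble and 6.96 and 6.95 in shLDHA. The shLDHA arrays lay more than 1 log2 unit above both scramble arrays. The mean was 5.75 ± 0.08 in scramble and 6.95 ± 0.01 in shLDHA (SD, n = 2 each), which is a 2.31-fold rise (log2 change 1.21, SE 0.09, adjusted p = 0.00157). Gsta4 was the only one of the 4 calls that stood without each array in turn. Over 13 alternative settings, several of which keep the main estimate by construction, its log2 change ran from 1.15 to 1.26.

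The rest of the class stayed within the threshold. Gstp1, the pi-class gene often abundant in tumour cells, read 10.12 and 10.09 in scramble and 9.99 and 10.12 in shLDHA, and Gsto1 read 9.65 and 9.58 against 9.64 and 9.70. Their intervals, from -0.26 to 0.16 and from -0.15 to 0.26, leave room for small changes in either direction. Gstp1 has a near-identical neighbour, Gstp2 (log2 change 0.12), so its signal may hold both.

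The mu-class neighbours Gstm1 and Gstm2, which are similar in sequence and may share signal, had estimates of opposite sign. Gstm2 read 5.63 and 5.74 in scramble and 5.52 and 5.37 in shLDHA (log2 change -0.24, adjusted p = 0.207), and Gstm1 read 4.75 and 5.02 against 5.003 and 5.14 (0.19, adjusted p = 0.428). The groups overlapped for Gstm1 and not for Gstm2. Gsta3, Gstt1 and Gstk1 were under the olfactory receptor mark, with log2 changes of 0.00, 0.08 and 0.33.

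The microsomal transferases are membrane enzymes that conjugate or reduce lipid-derived electrophiles, and 0 of 3 passed. At an unadjusted limma p under 0.05, 2 of the 3 passed, as did 4778 of all 22180 genes. Mgst3 read 4.84 and 5.17 in scramble and 5.40 and 5.60 in shLDHA, the largest estimate among the genes without a call (log2 change 0.50, SE 0.13, adjusted p = 0.0870). Mgst1 read 4.89 and 4.65 against 5.13 and 5.16 (0.38, adjusted p = 0.0992). Both were higher on both shLDHA arrays, and the spread between the scramble arrays, with SDs of 0.23 and 0.17, was wider than for most genes named here. Mgst2 read 5.73 and 5.44 against 5.38 and 5.52, with overlapping groups.

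Superoxide dismutases turn superoxide into hydrogen peroxide, which catalase then splits, and 0 of these 4 genes passed. Sod1, the cytosolic copper-zinc enzyme gene, read 10.39 and 10.35 in scramble and 10.09 and 10.16 in shLDHA, lower on both arrays (log2 change -0.24, adjusted p = 0.159, unadjusted p = 0.0250). Cat read 9.41 and 9.43 against 9.58 and 9.82, higher on both (0.28, adjusted p = 0.193, unadjusted p = 0.0356). Sod2, the mitochondrial enzyme gene, overlapped between groups (-0.07, interval -0.29 to 0.15), and Sod3, the secreted form, was under the olfactory receptor mark (log2 change 0.09).

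**Figure D3:**
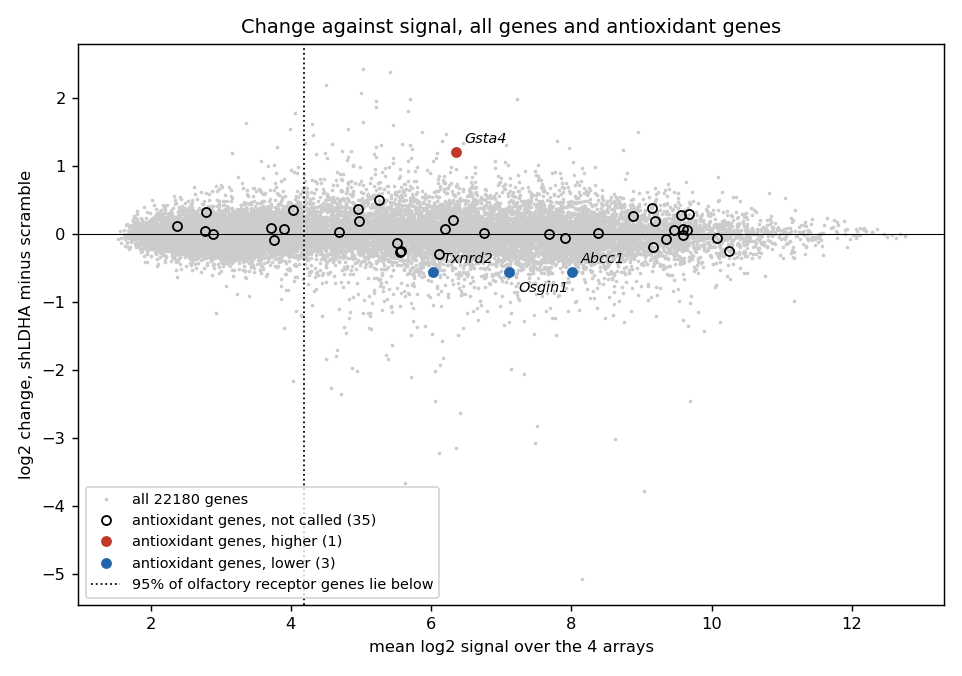
Log2 change, shLDHA minus scramble (y axis), against the mean log2 signal over the 4 arrays (x axis) for all 22180 genes (grey) and the 39 antioxidant genes (open circles not called, red higher, blue lower). The dotted line at 4.19 marks the signal under which 95% of olfactory receptor genes lie, and 31 of the 39 genes are to its right. The 4 called genes lie between 6.03 and 8.01, above the median signal of all genes (4.02).

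The number of calls changed with the way bright and dim genes enter the test. The median signal was 6.35 over the antioxidant genes and 4.02 over all genes. When the spread was modelled as a function of signal (eBayes with a trend), 10 of 39 passed (25.6%), 6 higher and 4 lower, as 12.7% of all genes did. When only genes at or above the median signal were fitted, 10 of 32 passed (31.2%), again 6 higher and 4 lower, as did 25.1% of all such genes. The settings shared 7 calls, namely the 4 above with Gsr, Gpx8 and Mgst3. In addition the trend called Gclm, Cat and Sod1, and the filter called Nqo1, Mgst1 and Gss. Gsr, Gpx8 and Mgst3 were higher in shLDHA, and both settings keep the log2 change of the main fit, so its direction could not differ.

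The 3 falls rested on all 4 arrays. Without scramble replicate 1 or 2, or shLDHA replicate 1 or 2, the adjusted p of Osgin1 was 0.0524, 0.0615, 0.0696 and 0.0768 and that of Abcc1 0.0524, 0.0702, 0.0773 and 0.0801. That of Txnrd2 was 0.0884, 0.0588, 0.0623 and 0.105 in the same order. Leaving out an array leaves 1 array in a group, which is then assumed to vary like the others. Over 13 settings the log2 changes ran from -0.58 to -0.55 for Osgin1, from -0.58 to -0.52 for Abcc1 and from -0.62 to -0.48 for Txnrd2. Several of these settings change only the spread or the set of genes and keep the main estimate by construction.

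Other genes of redox metabolism were read from 6 lists of 82 genes, of which 71 were measured. Of these, 6 were higher and 8 lower in shLDHA (19.7%), with a median log2 change of -0.04. At or above the median signal 14 of 53 were called (26.4%), beside the 11.7% of all such genes given above. The lists were chosen with earlier results of these data known, so the share describes them and is no independent evidence.

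Of 10 partners and relatives of NRF2, 3 fell, 0 rose and 7 did not pass, where 2.99% of all genes were called lower. All 10 lay above the median signal, where 11.7% of all genes were called in either direction. The median log2 change of the 10 was -0.18, beside 0.01 over all genes, with 3 estimates above 0 and 7 below. Maff and Mafk, small MAF proteins that pair with NRF2 on DNA, fell. Maff read 6.21 and 5.99 in scramble and 5.26 and 5.46 in shLDHA (log2 change -0.74, SE 0.12, adjusted p = 0.0181), and Mafk read 7.68 and 7.81 against 7.21 and 7.12 (-0.58, SE 0.09, adjusted p = 0.0190). Nfe2l1, the gene of the NRF2 relative NRF1, fell by 0.43 on the log2 scale (adjusted p = 0.0362). Mafg (-0.05), the NRF2 competitor Bach1 (-0.19), the adaptor Sqstm1 (-0.17) and Cul3 (0.08) did not pass. Nor did Gsk3b, which was lower on both shLDHA arrays (-0.39, adjusted p = 0.0762).

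Further NRF2 targets moved in both directions, 2 of 12 higher and 1 lower. These calls are 25% of the list, beside 6.36% of all genes and 11.7% of those at or above the median signal. Ephx1, the microsomal epoxide hydrolase gene, read 4.31 and 4.20 in scramble and 5.02 and 5.25 in shLDHA, 1.85-fold higher (log2 change 0.88, SE 0.11, adjusted p = 0.00815), and it passed in all 13 alternative settings. Aox1, the aldehyde oxidase gene, read 5.28 and 5.17 against 5.95 and 5.77 (0.63, adjusted p = 0.0176). Abcc4, which encodes an export pump related to Abcc1, read 7.72 and 7.70 against 7.22 and 7.02 (-0.59, adjusted p = 0.0212). Hmox1, the heme oxygenase gene and a standard NRF2 and stress readout, read 7.29 and 7.28 against 6.68 and 6.97 without passing (-0.46, adjusted p = 0.0707), and Pgd, a source of NADPH, changed by 0.40 (adjusted p = 0.0530).

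In the list of glutathione precursors, breakdown and glutaredoxins, 1 of 16 rose and 3 fell. The calls made up 25% of the list, beside 6.36% of all genes and 11.7% of those at or above the median signal. Glrx, the cytosolic glutaredoxin that removes glutathione from proteins, read 8.89 and 8.76 in scramble and 8.01 and 8.18 in shLDHA, 1.66-fold lower (log2 change -0.73, SE 0.10, adjusted p = 0.0120). Of the enzymes of glutathione breakdown, Ggct changed by -0.65 (adjusted p = 0.0186) and Chac1 by -0.42 (adjusted p = 0.0426). Cth, which makes cysteine from cystathionine, rose by 0.44 (adjusted p = 0.0324). The cystine importer genes Slc7a11 (0.02, interval -0.19 to 0.24) and Slc3a2 (0.01, interval -0.19 to 0.21) did not pass.

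**Figure D4:**
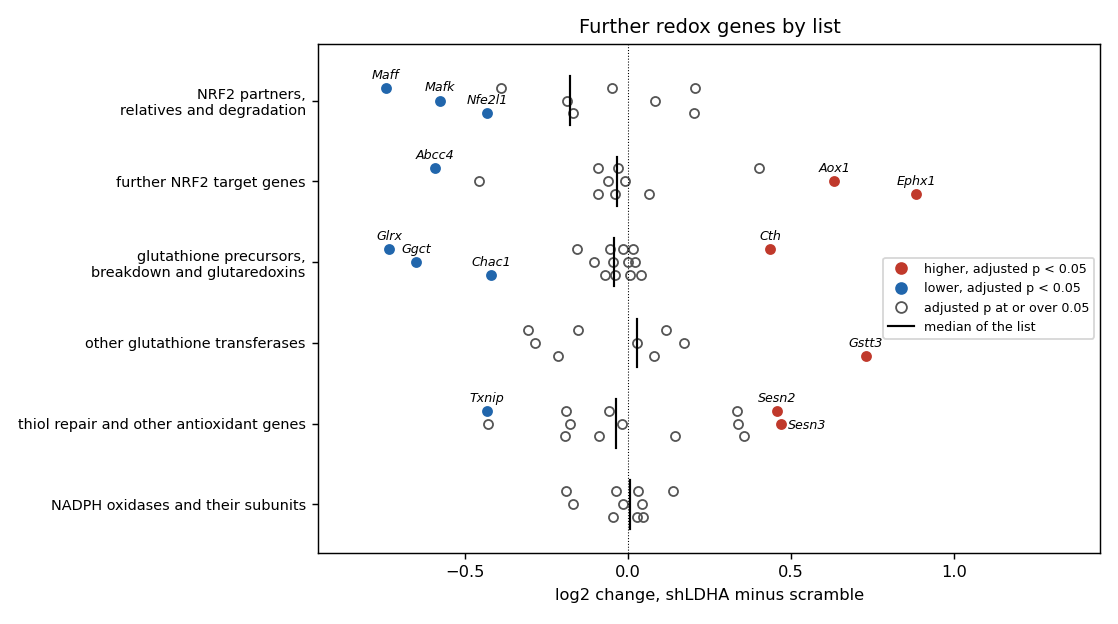
Log2 change, shLDHA minus scramble (x axis), of the 71 further redox genes in their 6 lists, 1 circle per gene from 2 arrays per group, with a black bar at the list median. Filled circles passed at an adjusted p under 0.05: 8 lie to the left, led by Maff and Glrx, and 6 to the right, led by Ephx1 and Gstt3; points are offset vertically for legibility only.

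Outside the listed transferases, Gstt3 was the single call of 9 other glutathione transferase genes (11.1%, beside 6.36% of all genes). It read 6.21 and 6.22 in scramble and 6.79 and 7.10 in shLDHA (log2 change 0.73, SE 0.12, adjusted p = 0.0199). Its theta-class relative Gstt1, described above, changed by 0.08. The 2 transferase genes that rose, Gsta4 and Gstt3, thus belong to different classes.

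Of 14 genes of thiol repair and other antioxidant functions, 2 rose and 1 fell. That is 21.4%, beside 11.7% of all genes at or above the median signal. The sestrin genes Sesn2 and Sesn3, whose products restrain mTORC1, rose by 0.46 (adjusted p = 0.0319) and 0.47 (adjusted p = 0.0310). Txnip, which encodes an inhibitor of thioredoxin, read 10.08 and 10.04 in scramble and 9.56 and 9.69 in shLDHA (log2 change -0.43, adjusted p = 0.0408). Msrb3 (-0.43, adjusted p = 0.0693), a methionine sulfoxide reductase gene, and Nnt (0.35, adjusted p = 0.0729), the mitochondrial transhydrogenase that makes NADPH, did not pass. The metallothionein genes Mt1 and Mt2 changed by -0.09 and -0.19.

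NADPH oxidases, which generate superoxide or hydrogen peroxide, gave 0 calls of 10, and 0 at an unadjusted p under 0.05. The smallest p-values belonged to Cyba (log2 change -0.19, adjusted p = 0.284) and Ncf1 (0.14, adjusted p = 0.432). Only 3 of the 10, Cyba, Nox4 and Noxa1, lay above the olfactory receptor mark. Of the 14 calls in the 6 lists, those of Chac1, Cth, Nfe2l1, Sesn2, Sesn3 and Txnip were lost with the replicate number as a block (adjusted p from 0.0644 to 0.0826) and in each fit that left out 1 array, and only that of Ephx1 stood without each array in turn. Glrx stood without 3 of the 4.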

How the data were processed

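The authors deposited log2 expression values of 4 arrays, for which the submitters' processing notes name RMA, a method that corrects, normalises and summarises probes, and R 3.4.0. Total RNA (400 ng) had been labelled with biotin, per the labels' protocols. RMA settings and annotation version are not given in the sources used here. Groups came from sample titles, since the cell type label reads the same in both.

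Of 41345 probe sets, 23521 had exactly 1 symbol in the platform table, 1814 several and 16010 none. For 1082 genes with several probe sets the brightest was kept. All 22180 genes were fitted with limma 3.58.1 in R 4.3.3 (lmFit, eBayes, 2 residual and 4.52 prior degrees of freedom), two-sided, with Benjamini-Hochberg adjustment over all genes. Every adjusted p is from limma. Intervals are unadjusted. The code was tested on simulated data.

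Every listed gene with such a probe set was reported. From each further list, up to 4 called genes, or the 2 with the smallest p, were named by rule. Others named there were chosen after their values were seen. Members and lists were chosen with earlier results of these data known. The 13 alternative settings leave out a relaxed threshold of 0.1. A fold is 2 raised to the size of the log2 change, and array signals may understate changes of dim genes. Figures used matplotlib 3.10.9.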

Additional observations from a re-analysis of the deposited data

How the results depend on the processing

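The count of antioxidant genes called higher, 1, was 6 with genes at or above the median signal. It was 2 with genes above the 25th percentile, 6 with a trend and 5 at a limma adjusted p under 0.1. Over all genes the count called higher, 747, was 1442, 941, 1425 and 1271 in the same order of settings. In fits without 1 array the log2 change of Gsta4 ran from 1.15 to 1.26 and that of Mgst3 from 0.33 to 0.66. The count called lower, 3, was 4 with genes at or above the median signal and 4 with a trend. Over all genes the count called lower, 663, was 1341 and 1381 there. Without any 1 array the 3 calls were lost, and fewer of all genes were called too. Log2 changes without an array ran from -0.58 to -0.55 for Osgin1, from -0.58 to -0.52 for Abcc1 and from -0.62 to -0.48 for Txnrd2. Further redox genes gave 3 higher and 5 lower with the replicate block, where all genes gave 433 and 405. With a trend 13 further redox genes were lower, as were 1381 of all genes. Without any 1 array fewer further redox genes were called in either direction, and fewer of all genes too. The log2 change of Ldha, -0.59, kept its sign and lost its call with the replicate block (adjusted p = 0.0734) and without scramble replicate 2 or either shLDHA replicate (-0.73 to -0.45 without an array). Deviations of arrays with the same number correlated at -0.03 across genes, so the numbers were not taken as pairs, and the replicate block left the 4 antioxidant calls in place. Centring each array turned Prdx2 (-0.0037) and Gsta3 (-0.011), and a second quantile normalization Gsta3 (-0.0019). For genes near 0 the sign turned in fits without an array, over which the log2 change ran from -0.068 to 0.15 for Gpx3, -0.0056 to 0.16 for Gpx4, -0.23 to 0.061 for Gpx7 (0.043 without scramble replicate 2), -0.024 to 0.13 for Txn1, -0.058 to 0.024 for Txnrd1, -0.14 to 0.20 for Txnrd3 (-0.10 without scramble replicate 1), -0.033 to 0.050 for Prdx2 (-0.0093 without scramble replicate 2), -0.10 to 0.10 for Gsta3 (-0.060 without scramble replicate 1), -0.11 to 0.013 for Gstp1 and -0.28 to 0.0062 for Mgst2. The cause of these shifts was not tested. The number of arrays, and for 8 antioxidant genes a signal under the olfactory receptor mark, limits what can be seen.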
